A study of Mus musculus with 9 samples.

Results

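The 10 genes described here, Sprr1a, Sprr1b, Sprr2d, Sprr2f, Sprr2h, Sprr3, Ivl, Lor, Trp63 and Dsg3, are known from stratified squamous epithelia such as skin and esophagus, and they were examined in mouse colon. They were taken from the deposited files by gene symbol, and all 10 were found among 21498 symbols. The list had been chosen by gene name after the FPKM of these 9 samples had been seen in all 3 groups, so the values of the 10 are given as a description, no p-value is printed for any of them, and test calls on them are only counted. RNA-seq was performed on the colon of 9 male ICR mice, an outbred strain, 5 weeks old at the start, with 3 mice in each of 3 groups. Control mice received neither azoxymethane (AOM), a colon carcinogen, nor dextran sulfate sodium (DSS), which injures the colon lining, nor antibody, and their samples are labelled normal colorectal mucosa. Mice of the AOM/DSS + IgG Ab group (IgG) were given AOM once, at 10 mg/kg, and went through 3 cycles of DSS, the first at 2% over 7 days and the later ones at 1.5% over 5 days, while a control IgG antibody was injected at 1.5 mg/kg every 2 days. Mice of the AOM/DSS + anti-S100a9 Ab group (anti-S100a9) had the same AOM and DSS with 1.5 mg/kg of an antibody that neutralizes S100a9, an inflammatory protein of myeloid cells. Samples of both AOM/DSS groups are labelled colorectal adenocarcinoma, although the paper calls the anti-S100a9 tissue colon mucosa. Samples of all 3 groups were taken at the end of week 18. How close to the anal canal the tissue was taken is not given in the sources used here, so kind and site of tissue cannot be told apart from treatment. Whole tissue was sequenced, so fewer cells of a type and less RNA per cell cannot be told apart in any value below.

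The cornified envelope is a shell of cross-linked protein that replaces the cell membrane in the outermost cells of skin and other stratified epithelia. Loricrin (Lor) is a main protein of that shell, involucrin (Ivl) is one of its first scaffold proteins, and the small proline-rich proteins (Sprr genes) bridge the other components. Transglutaminases join them. Trp63 encodes p63, a transcription factor needed for stratified epithelium, and Dsg3 encodes desmoglein 3, a desmosomal cadherin that holds keratinocytes together. Normal colon is lined by a single layer of columnar cells and forms no cornified envelope, while the anal canal beside it is stratified squamous.

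Of the 10 genes, 8 lie on chromosome 3 of GRCm38 between 92080271 and 92573790, from Lor at one end to Ivl at the other, inside the cluster known as the epidermal differentiation complex. Trp63 and Dsg3 lie elsewhere. The 250 bases upstream of the RefSeq start site (GRCm38.p6) are shown for 5 of the Sprr genes, 4 that were detected and Sprr3, which was listed at 0 in all 9 samples. Each is written 5′ to 3′ on the strand of the gene, and capitals mark matches, on either strand, to TGANTCA (the letters of AP-1 sites, with any middle base) or to ATTTGCAT, the octamer motif. The motifs were chosen after these sequences had been read.
Sprr1a, chr3:92485882-92486131, minus strand: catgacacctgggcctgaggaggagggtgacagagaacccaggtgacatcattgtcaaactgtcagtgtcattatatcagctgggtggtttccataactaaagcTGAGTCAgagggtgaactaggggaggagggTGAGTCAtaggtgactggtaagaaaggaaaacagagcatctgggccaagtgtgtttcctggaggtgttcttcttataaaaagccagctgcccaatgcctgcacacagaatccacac
Sprr2d, chr3:92338890-92339139, plus strand: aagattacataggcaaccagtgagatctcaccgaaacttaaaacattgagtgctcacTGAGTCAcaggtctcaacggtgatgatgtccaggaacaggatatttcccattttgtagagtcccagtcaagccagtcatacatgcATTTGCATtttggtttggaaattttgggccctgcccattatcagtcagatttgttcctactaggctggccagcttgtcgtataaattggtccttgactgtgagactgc
Sprr2f, chr3:92364937-92365186, plus strand: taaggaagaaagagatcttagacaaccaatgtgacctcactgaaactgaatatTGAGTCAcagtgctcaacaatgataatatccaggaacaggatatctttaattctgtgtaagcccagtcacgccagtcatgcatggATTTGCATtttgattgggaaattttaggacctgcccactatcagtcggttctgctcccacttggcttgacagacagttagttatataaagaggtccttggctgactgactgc
Sprr2h, chr3:92385435-92385684, plus strand: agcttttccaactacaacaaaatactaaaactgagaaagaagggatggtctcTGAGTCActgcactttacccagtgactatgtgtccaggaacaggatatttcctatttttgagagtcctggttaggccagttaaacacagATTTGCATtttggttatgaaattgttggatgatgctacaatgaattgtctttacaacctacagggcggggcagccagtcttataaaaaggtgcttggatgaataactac
Sprr3, chr3:92458721-92458970, minus strand: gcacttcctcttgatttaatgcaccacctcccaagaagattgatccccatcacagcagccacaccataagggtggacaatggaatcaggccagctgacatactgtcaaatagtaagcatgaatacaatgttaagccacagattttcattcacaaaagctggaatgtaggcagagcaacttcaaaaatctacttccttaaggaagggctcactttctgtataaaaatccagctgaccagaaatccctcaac
Both motifs stood in the promoters of Sprr2d, Sprr2f and Sprr2h, with the first base of TGANTCA 193, 197 and 198 bases before the start and the first base of ATTTGCAT 108, 112 and 109 bases before it. Sprr1a had TGANTCA 146 and 116 bases before the start and no ATTTGCAT, and Sprr3 had neither. Of the promoters not shown, those of Sprr1b, Ivl and Lor had TGANTCA 111, 116 and 48 bases before the start. The match of Sprr1b reads TGAATCA, with A as the middle base where the other genes of the set had G or C. Sprr1b was listed above 0 in only 1 sample and Ivl at no more than 0.177 FPKM, so TGANTCA was not limited to the genes with higher listed values. Matches of the 2 motifs did not overlap. Promoters of the 8 genes on chromosome 3 were searched, and those of Trp63 and Dsg3 were not included. TGANTCA was present in 7 of the 8, against 7.81% of 32851 promoters of the same length (300 bases, 250 before and 50 after the start), and ATTTGCAT in 3 of the 8, against 1.74%. The 3 genes with ATTTGCAT are the Sprr2 genes of the set, whose promoters are 61.9 to 73.2% identical. Their matches are therefore not independent, for TGANTCA as for ATTTGCAT, and the share of 7 of 8 has the same limit. Outside the set, only the promoters of Sprr2b, Sprr2e and Sprr2i were looked at, all genes with a higher mean in IgG than in Control, and they held both motifs too. Those of Sprr2a1, Sprr2a2, Sprr2a3 and Sprr2k were not looked at. Whether the motifs go with higher values among Sprr2 genes was therefore not tested. These are matches of letters, and no binding was measured. Along the whole transcript, the 3 Sprr2 genes of the set resemble each other. Identity was 72.5% between Sprr2d and Sprr2f, 71.1% between Sprr2d and Sprr2h and 65.6% between Sprr2f and Sprr2h. Even so, at most 4.27% of the 50-base windows of any of the 10 transcripts, the share for Sprr2d, occurred in a transcript of another gene, and none of the 100-base windows did.

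Values are FPKM, fragments per kilobase of transcript, scaled to sequencing depth, which puts genes of different length on 1 scale. One fragment on a transcript of 1 kb was worth an estimated 0.0333 to 0.0435 FPKM, read from the steps between low values. Some genes that every cell uses were far too low in these files: Rps18, a ribosomal protein gene, was listed at 0 in 3 samples, Gapdh had 0.156 to 0.755 FPKM and Ppia 0.173 to 0.974 FPKM in the 9 samples, whereas Actb ranged from 796 to 1089 FPKM. A value at or near 0 is therefore given only as listed and does not show that a gene was not expressed, and comparison of levels between genes has the same limit. Fold changes are on the log2(FPKM + 0.1) scale, which understates the change of low genes, and a gene was tested if it had at least 0.1 FPKM in at least 3 samples, as 15278 genes did. Groups were compared with limma across these genes, and a gene was called changed at a Benjamini-Hochberg adjusted p under 0.05. Of the 10 genes, 5 could be tested: Sprr1a, Sprr2f, Sprr2h, Lor and Dsg3. Sprr2f and Dsg3 reached the minimum through the IgG samples alone, so they had to differ.

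Sprr1a had the highest listed level of the 10 in every group. It had 2.02, 0.951 and 2.95 FPKM in Control, 10.5, 16.1 and 26.8 in IgG, and 4.69, 6.74 and 3.27 in anti-S100a9. The 3 groups did not overlap for Sprr1a, with the anti-S100a9 samples between the other two. Group means were 1.97 ± 1.00, 17.8 ± 8.27 and 4.90 ± 1.74 FPKM (SD, n = 3 each). The log2 fold change was 3.14 (SE 0.46) for IgG vs Control, -1.80 (SE 0.46) for anti-S100a9 vs IgG and 1.34 (SE 0.46) for anti-S100a9 vs Control. The first 2 of these share the IgG samples. Sprr1b, the closest relative of Sprr1a with 68.0% transcript identity, was listed at 0 in 8 samples and had 0.0577 FPKM in IgG replicate 2, an estimated 1.44 fragments.

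Sprr2d, Sprr2f and Sprr2h were highest in IgG replicate 3 and varied widely among the mice of that group. Sprr2f had 0.202, 0.505 and 11.3 FPKM in the 3 IgG mice and was listed at 0 in the other 6 samples. The largest of these values was 56.2 times the smallest, and only the mouse with the largest was above 1 FPKM. Sprr2d was listed at 0 in all Control samples, had 0, 1.23 and 8.08 FPKM in IgG, and 0.0696, 0 and 0 in anti-S100a9. The groups overlapped for Sprr2d, because IgG replicate 1 was at 0, and it was not tested. Sprr2h had 0.434, 0 and 0 FPKM in Control, 0.555, 3.34 and 3.85 in IgG, and 0.453, 0.456 and 0 in anti-S100a9. Every IgG sample was above every other sample for Sprr2h, although replicate 1 was close to 1 Control and 2 anti-S100a9 samples. Its log2 fold change was 3.57 (SE 0.98) for IgG vs Control, -2.73 (SE 0.98) for anti-S100a9 vs IgG and 0.84 (SE 0.98) for anti-S100a9 vs Control, the last within its SE. Sprr3, an esophageal member of the family, was listed at 0 in all 9 samples.

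**Figure D1:**
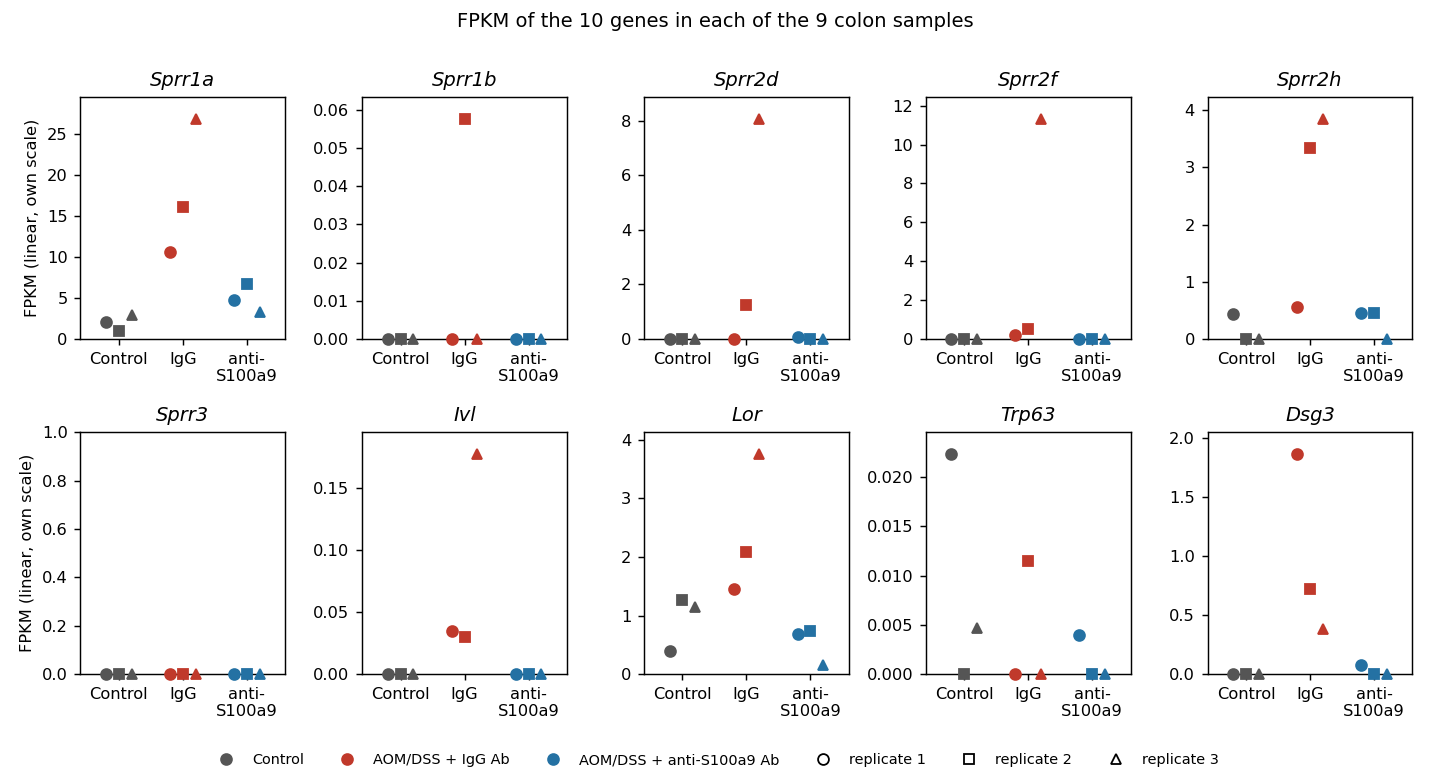
FPKM of each of the 10 genes (linear y axes, a different scale in each panel) in the 3 samples of each group; colors mark groups and marker shapes mark replicate numbers. Sprr1a, Sprr2d, Sprr2f, Sprr2h, Lor and Ivl are highest in IgG replicate 3 (26.8 FPKM for Sprr1a), Dsg3 is highest in replicate 1 (1.87 FPKM), and Sprr3 is at 0 throughout.

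The envelope proteins Lor and Ivl differed in level. Lor was present in every sample, with 0.406, 1.28 and 1.15 FPKM in Control, 1.46, 2.09 and 3.76 in IgG, and 0.681, 0.743 and 0.158 in anti-S100a9. Each IgG sample was above all samples of the other groups, which overlapped each other. The log2 fold change of Lor was 1.31 (SE 0.58) for IgG vs Control, -2.09 (SE 0.58) for anti-S100a9 vs IgG and -0.78 (SE 0.58) for anti-S100a9 vs Control. Ivl had 0.0353, 0.0300 and 0.177 FPKM in IgG, an estimated 1.70, 1.73 and 8.29 fragments, and was listed at 0 in the other 6 samples. Ivl was thus seen in IgG samples only, at a level too low for the test.

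Dsg3, on chromosome 18, was the only one of the 10 with its highest value in IgG replicate 1. It had 1.87, 0.723 and 0.384 FPKM in the 3 IgG mice and was listed at 0 in all Control samples. In anti-S100a9 it had 0.0828, 0 and 0 FPKM, a log2 fold change of -2.91 (SE 0.50) from IgG. The order of the 3 IgG mice for Dsg3 was the reverse of that for Sprr1a and Lor. Trp63, on chromosome 16, had 0.0223, 0 and 0.00469 FPKM in Control, 0, 0.0115 and 0 in IgG, and 0.00403, 0 and 0 in anti-S100a9. Its largest value, in a Control sample, corresponded to an estimated 3.08 fragments, and no difference was detectable at this depth.

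Counted over the set, 6 of the 10 genes had all IgG samples above all Control samples, where 15.6% of all 21498 symbols did. Likewise 6 had all IgG samples above all anti-S100a9 samples (21.2% of all symbols), and 1, Sprr1a, had all anti-S100a9 samples above all Control samples (12.8%). In IgG vs Control, limma called 3 of the 5 tested genes higher, Sprr1a, Sprr2h and Dsg3, beside 8.18% of all genes tested. For anti-S100a9 vs IgG it called 4 lower, Sprr1a, Sprr2f, Lor and Dsg3, beside 14.4% of all genes tested. Sprr2f was listed at 0 in all Control and all anti-S100a9 samples, so its difference from IgG was the same in both comparisons. Only the adjustment over all genes separated its 2 calls. Sprr2f and Dsg3 reached the minimum through the IgG samples alone. In anti-S100a9 vs Control it called 0 higher, beside 0.00655%, and 1, Sprr1a, had an unadjusted p under 0.05 and a higher level, beside 8.87%. Because the genes were listed with these values known, nothing is read from the shares. The summed level of the 10 genes ran from 2.23 to 4.10 FPKM in Control, 14.7 to 54.4 in IgG and 3.43 to 7.94 in anti-S100a9. Leaving out IgG replicate 3 reduced the calls from 3 to 1 and from 4 to 0. Without IgG replicate 2 both counts were 1, and without IgG replicate 1 they were 2 and 1, with 3 genes tested in each of these fits. Without any 1 of the anti-S100a9 replicates, 1 gene was called lower.

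The name of the set was checked against the data, and markers of stratified squamous epithelium were listed at very different levels. Krt14 reached 37.1 FPKM, Krt15 10.0, Krt13 9.84 and Krt4 5.22 in IgG samples. By contrast, beside Trp63, Sprr3, Sprr1b and Ivl, Krt5, the partner of Krt14 in basal keratinocytes, reached at most 0.468 FPKM, Krt1 of the suprabasal epidermis at most 0.0864 FPKM, and the filaggrin family genes Flg and Hrnr were listed at 0 in all 9 samples. Of 38 other cornified envelope genes, late cornified envelope genes included, 19 were listed at 0 in all IgG samples and 29 in all Control samples. The genes are therefore described one by one. A list of 12 absorptive colonocyte markers summed to at least 1767 FPKM in every sample. Lgals4 and Epcam, with at least 705 and 691 FPKM in every IgG sample, made much of this sum. Of the 12, 4 were called lower in IgG vs Control and 8 did not pass. Car4 and Slc26a3, among the 4, were as low as 1.37 and 2.79 FPKM in IgG, beside Control means of 381 and 157 FPKM.

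Genes between Lor and Ivl did not all follow the pattern of the 8 members there. Of the 20 genes of this stretch with values, 12 were outside the set, and 2 of these were listed at 0 in all samples. Of the 8 of them that were tested, 3 were called higher in IgG vs Control, beside 8.18% of all genes tested. The 3 were Sprr2b, Sprr2e and Prr9, a proline-rich protein gene. Sprr2e and Prr9 passed the minimum through the IgG samples alone, so they had to differ. Prr9 had 2.37, 3.75 and 0.618 FPKM in IgG and was listed at 0 in all Control samples. Sprr2b had 0.338, 0 and 0.224 FPKM in Control, 5.27, 23.9 and 31.3 in IgG, and 1.41, 1.24 and 0.0671 in anti-S100a9. Its log2 fold change was 6.04 (SE 0.99, limma adjusted p = 0.0080) for IgG vs Control and -4.52 (SE 0.99, adjusted p = 0.020) for anti-S100a9 vs IgG. Sprr2a3, on average the most abundant gene of the stretch, had 119 ± 44.7 FPKM in Control, 161 ± 84.1 in IgG and 112 ± 12.1 in anti-S100a9 (SD, n = 3 each). Its log2 fold change for IgG vs Control was 0.31 (SE 0.43, adjusted p = 0.67). Sprr2a3 shares 61.1% of its 50-base windows with other genes, so its reads and those of Sprr2a1 and Sprr2a2 may have been split between them.

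**Figure D2:**
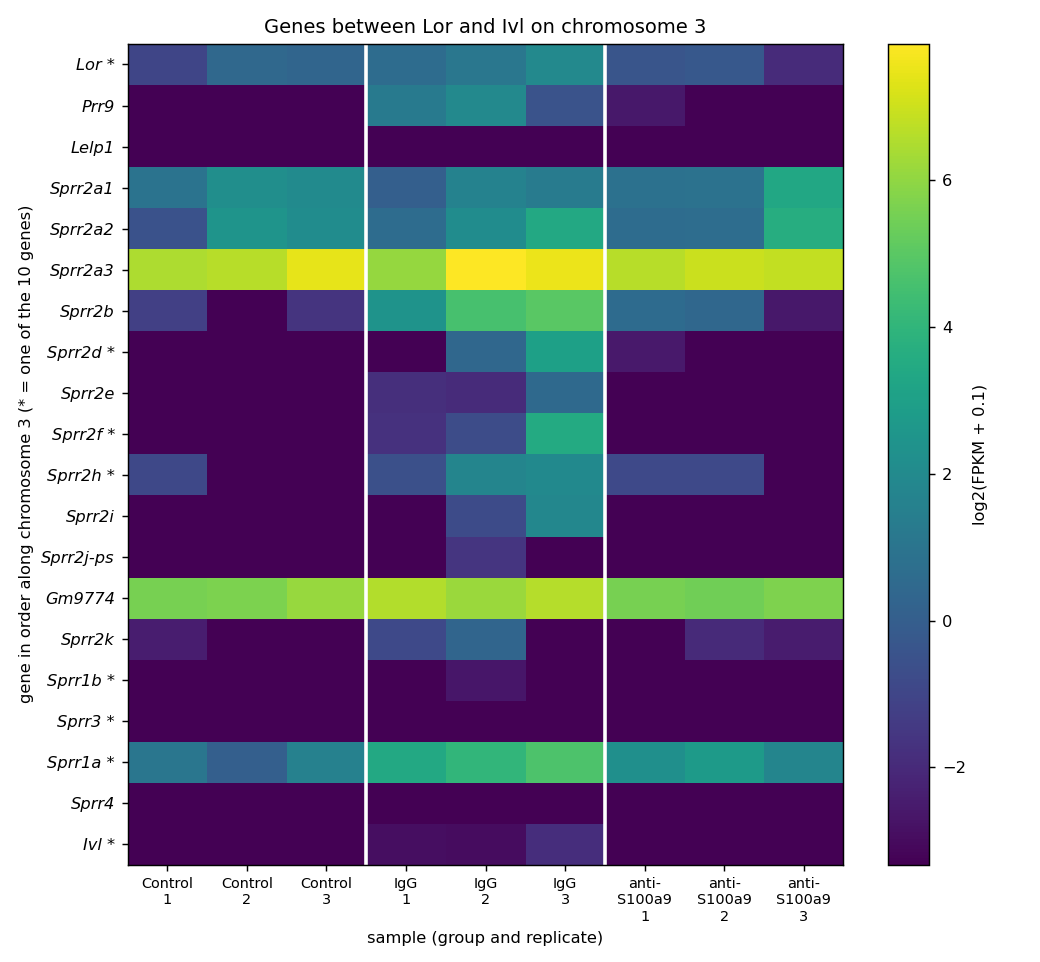
log2(FPKM + 0.1) of the 20 genes between Lor and Ivl, in order along chromosome 3 (rows), in the 9 samples (columns, white lines between groups); stars mark the genes of the set. Sprr2b, Sprr2f, Sprr2h and Sprr1a are brighter in the 3 IgG samples than elsewhere, Sprr2d in IgG replicates 2 and 3, Sprr2a3 is bright in all 9, and Sprr3, Sprr4 and Lelp1 are dark in all 9.

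Other genes of squamous epithelia were then examined in 8 lists, 156 genes without the 10, of which 154 were in the files and 98 were tested. The lists were chosen with earlier results of these data known, so their shares and medians are a description and not independent of the set. In IgG vs Control 22 rose, 22.4% of those tested beside 8.18% of all genes, 2 fell, beside 3.01% of all genes, and 74 did not pass. The median log2 fold change was 0.53, beside 0.09 for all genes. In anti-S100a9 vs IgG 23 fell, 23.5% beside 14.4% of all genes, 1 rose, beside 6.72%, and the median was -0.40, beside -0.06 for all genes. In anti-S100a9 vs Control limma called 0 in either direction, with 1 of 15278 genes called in each direction overall. At an unadjusted p under 0.05, 5 of the 98 were higher, beside 8.87% of all genes, and 3 lower, beside 7.1%. All 22 genes that rose had every IgG sample above every Control sample, beside 15.6% of all symbols. Of the 23 that fell, 22 had every IgG sample above every anti-S100a9 sample, beside 21.2%. With 3 mice per group a call favors genes without overlap, so these counts add nothing to the calls. Among the 22, Sprr2e, Crnn and Dsg1c had no sample outside IgG at 0.1 FPKM. Krt6a and Dsg4 had 1 each, so these genes too reached the minimum only with the IgG samples. Among the 23, this held for Sprr2e, Dsg1c, Krt6a, Dsg4 and Fat2. The count of 22 became 12, 8 and 14 without Control replicate 1, 2 or 3 and 14 without IgG replicate 1. The count of 23 became 13 and 14 without IgG replicate 1 or 3, and 11, 6 and 8 without anti-S100a9 replicate 1, 2 or 3.

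Among keratins, the intermediate filament proteins of epithelia, 5 of 11 tested (45.5%) rose in IgG vs Control, beside 8.18% of all genes. In anti-S100a9 vs IgG, a comparison that shares the IgG samples, 5 fell (45.5%), beside 14.4% of all genes. Both calls fell on Krt14 and Krt15 of basal cells, Krt4 and Krt13 of moist stratified epithelia such as esophagus, and Krt6a of injured epidermis. Krt6a reached the minimum only with the IgG samples. Krt14 had 0.932, 0.797 and 1.68 FPKM in Control, 37.1, 4.63 and 18.6 in IgG, and 1.95, 1.74 and 0.819 in anti-S100a9. Its log2 fold changes were 3.66 (SE 0.69, adjusted p = 0.013) and -3.30 (SE 0.69, adjusted p = 0.017). Krt13 had a log2 fold change of 3.54 (SE 0.70, adjusted p = 0.016) for IgG vs Control, and Krt15 one of 2.92 (SE 0.63, adjusted p = 0.023). Krt17, at 20.3, 2.68 and 9.35 FPKM in IgG, overlapped the Control samples and did not pass (adjusted p = 0.16).

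Among desmosome genes, which hold neighboring epithelial cells together, 2 of 11 tested (18.2%) rose in IgG vs Control, beside 8.18% of all genes. They were Dsg1c and Dsg4, which stayed below 1 FPKM and reached the minimum only with the IgG samples. The abundant desmosome genes of simple epithelium did not pass: Dsp had 48.8 ± 9.98 FPKM in Control and 51.7 ± 12.2 in IgG, and Dsg2 30.0 ± 9.52 and 35.0 ± 5.11 (SD, n = 3 each). In anti-S100a9 vs IgG 4 fell (36.4%, beside 14.4% of all genes): Dsg1c, Dsg4, Pkp3 and Jup, plakoglobin. Jup had a log2 fold change of -0.70 (SE 0.17, limma adjusted p = 0.027).

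Among 15 tested enzymes that cross-link or mature the barrier, 1 rose (6.67%, beside 8.18% of all genes) and 1 fell (6.67%, beside 3.01%) in IgG vs Control. Asprv1, a protease that processes filaggrin, had 0.305, 0.362 and 0.344 FPKM in Control, 57.3, 13.7 and 11.2 in IgG, and 0.889, 0.417 and 0.272 in anti-S100a9, although Flg itself was listed at 0. Its log2 fold changes were 5.57 (SE 0.60, adjusted p = 0.0014) and -5.17 (SE 0.60, adjusted p = 0.0031). Tgm3, the epidermal transglutaminase, went the other way, with 82.7, 98.6 and 84.2 FPKM in Control and 21.0, 24.5 and 19.6 in IgG (log2 fold change -2.03, SE 0.44, adjusted p = 0.023). In anti-S100a9 it had 22.5, 62.6 and 99.6 FPKM, a spread that covered both other groups. Among 8 tested envelope proteins, 1 rose (12.5%, beside 8.18% of all genes) and 1 fell (12.5%, beside 3.01%). Crnn, cornulin, rose from 0.0222 to 0.214 FPKM on average and reached the minimum only with the IgG samples. Evpl, envoplakin, fell with a log2 fold change of -0.75 (SE 0.20, limma adjusted p = 0.048). In anti-S100a9 vs IgG, 2 of the 15 enzymes (13.3%) fell and 1 (6.67%) rose, close to the 14.4% and 6.72% of all genes. Of the 8 envelope proteins, 0 were called in either direction.

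Of 18 tested transcription regulators, 3 rose in IgG vs Control (16.7%, beside 8.18% of all genes), Grhl1, Grhl3 and Hopx. In anti-S100a9 vs IgG, which shares the IgG samples, the same 3 fell (16.7%), close to the 14.4% of all genes. The median log2 fold changes of this list were 0.11 and -0.02, beside 0.09 and -0.06 for all genes. Grhl3, which drives epidermal barrier genes, had 0.401, 0.294 and 0.133 FPKM in Control, 6.05, 1.75 and 3.21 in IgG, and 0.462, 0.995 and 0.271 in anti-S100a9. Its log2 fold change was 3.23 (SE 0.54, adjusted p = 0.0086) for IgG vs Control. Klf4, which colon and epidermis both use, had 138 ± 24.5 FPKM in Control and 82.2 ± 50.2 in IgG (SD, n = 3 each) and did not pass (adjusted p = 0.21).

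Of 15 tested genes of the basal layer, 3 (20.0%) rose in IgG vs Control, beside 8.18% of all genes. Col17a1, a hemidesmosome collagen, and Jag2, a Notch ligand, were among them. Col17a1 had 0.331, 0.176 and 0.333 FPKM in Control and 6.47, 1.07 and 3.41 in IgG, a log2 fold change of 3.01 (SE 0.59, adjusted p = 0.016). Of 14 tested genes in a list of other squamous genes, 5 rose (35.7%, beside 8.18% of all genes): Mt4, Lypd3, Mal, Gsdma and Dkk3. Mt4, a metallothionein of stratified squamous epithelia, was by far the most abundant of them in IgG, at 829 ± 678 FPKM (SD, n = 3), and had 34.1, 3.55 and 0 FPKM in anti-S100a9. In anti-S100a9 vs IgG, 3 of the 15 basal layer genes (20.0%) and 4 of the 14 other squamous genes (28.6%) fell, beside 14.4% of all genes. Of either list 0 rose, beside 6.72%. Genes named only as part of a count, such as Krt4, Dkk3 and Pkp3, and Prr9 were named after their values had been seen.

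**Figure D3:**
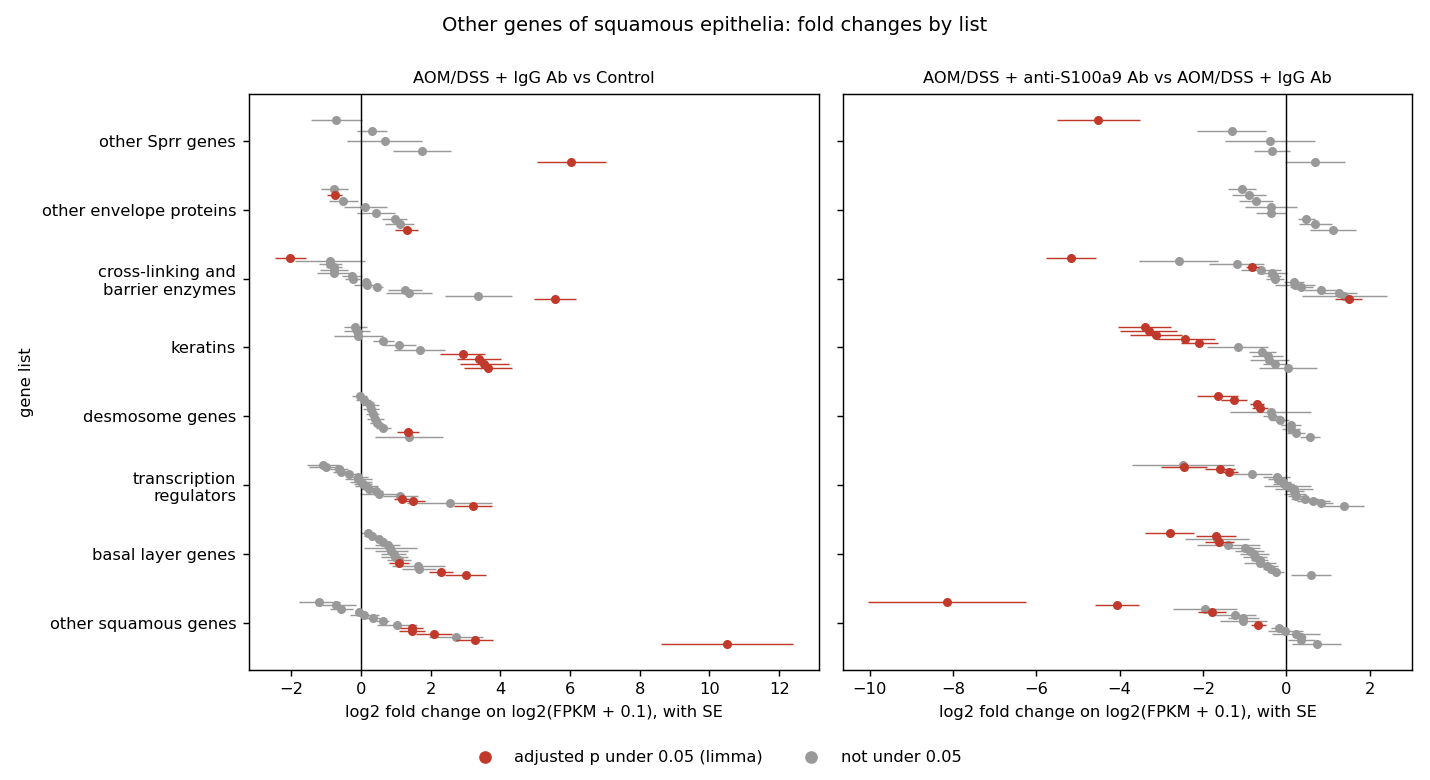
log2 fold change with SE (x axis) of each tested gene of the 8 lists of other squamous genes (rows), for IgG vs Control (left) and anti-S100a9 vs IgG (right), which share the IgG samples; red points have a limma adjusted p under 0.05. Genes listed at 0 throughout a compared group are not drawn (3 left, 1 right). Mt4 is the point at 10.50 on the left and Tgm3 the one at -2.03.

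The 3 IgG mice did not rank the same way for all squamous genes. Of the 22 list genes that rose, 15 were highest in replicate 1, 0 in replicate 2 and 7 in replicate 3, and the highest value was 1.89 to 8.32 times the lowest, with a median of 3.41. Krt14, Krt15, Asprv1, Mt4 and Gsdma were highest in replicate 1, as was Dsg3. Sprr2b, Sprr2e, Crnn and Krt13 were highest in replicate 3, as were Sprr1a, Sprr2d, Sprr2f, Sprr2h, Lor and Ivl.

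**Figure D4:**
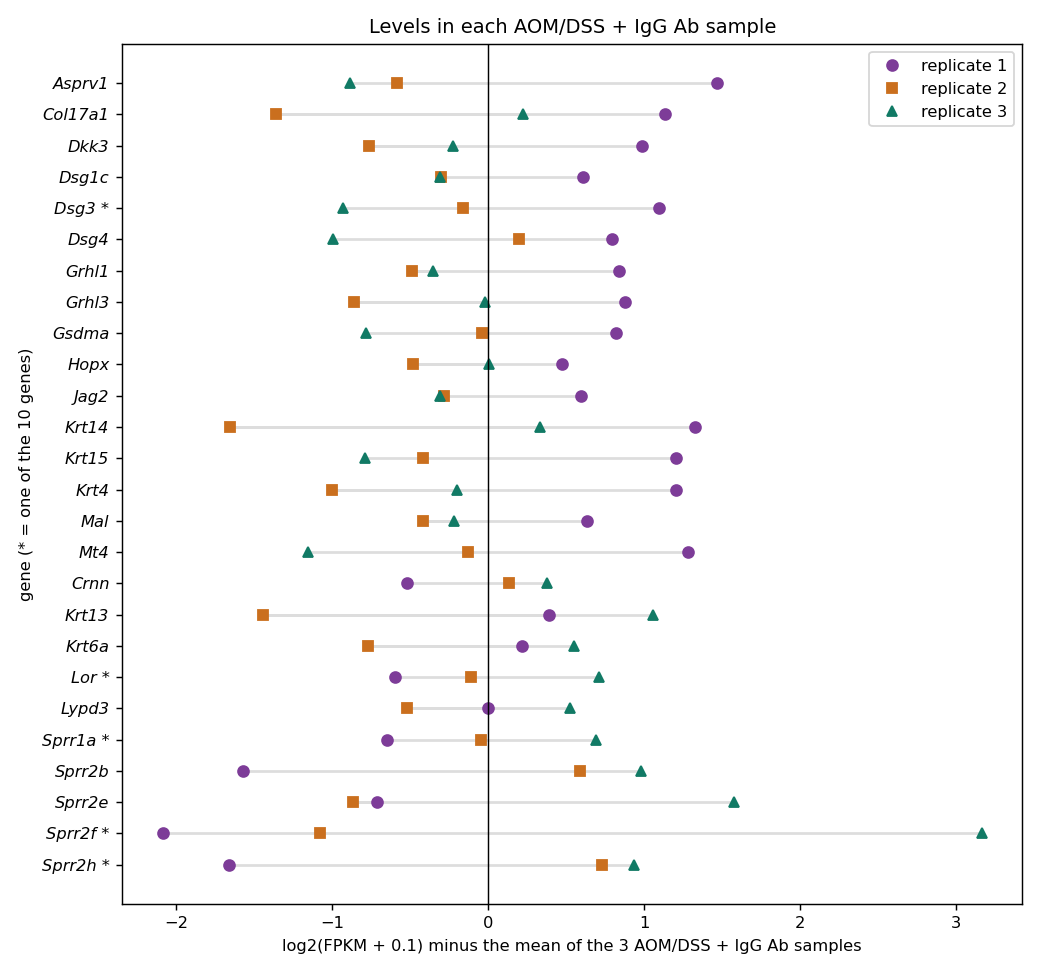
log2(FPKM + 0.1) of each IgG sample minus the mean of the 3 (x axis), for the 5 tested genes of the set (stars) and 21 of the 22 other squamous genes that rose (rows, ordered by the replicate with the highest value). Replicate 1 is highest for Dsg3 and 15 of the other genes, and replicate 3 for Sprr1a, Sprr2f, Sprr2h, Lor and 6 of the others.

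Markers of other cell types moved between the groups as well. Of 13 skin appendage and pigment cell genes, 2 passed the minimum, Pmel of pigment cells and Krt35, a hair keratin, the latter only with the IgG samples. Listed at 0 in all IgG samples were 7 of the 13. Krt71 was at 0 in all 9 samples, and Tyr in all but 1. Their summed level was 0.583 to 1.19 FPKM in Control, 3.65 to 31.8 in IgG and 0.728 to 1.00 in anti-S100a9. Krt35 made most of it in replicates 1 and 2, with 30.5, 3.91 and 1.17 FPKM in IgG. The sum was 31.8 FPKM in IgG replicate 1, where Dsg3 and Krt14 were highest, and 3.65 in replicate 3, where Sprr1a, Sprr2d, Sprr2f and Sprr2h were highest. Skeletal muscle markers summed to 10.5 to 20.0 FPKM in Control, 5.51 to 14.8 in IgG and 11.7 to 19.4 in anti-S100a9. Acta1 was listed at 0 in all 9 samples, and Ckm had 0.760 to 11.3 FPKM. Of 6 tested, 1, Myh2, fell in IgG vs Control, while in anti-S100a9 vs IgG 2 fell, Mylpf and Tnni2, and 2 rose, Myh2 and Pygm. Tnni2 had 0.954 ± 0.410 FPKM in Control, 1.77 ± 0.718 in IgG and 0.501 ± 0.178 in anti-S100a9 (SD, n = 3 each).

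Of 8 neutrophil markers, 7 rose in IgG vs Control, and these 7 summed to 134, 366 and 615 FPKM in IgG replicates 1, 2 and 3, to 4.40 to 5.87 in Control and to 15.0 to 31.2 in anti-S100a9. S100a9, the target of the antibody, and S100a8 made most of this sum in IgG, with means of 168 and 139 FPKM. The paper names tumor cells, beside infiltrating myeloid cells, as sites of raised S100a9 in many epithelial tumors. Ly6g did not pass and had a lower mean in IgG, with 104 ± 14.4 FPKM in Control, 72.4 ± 40.1 in IgG and 124 ± 36.4 in anti-S100a9 (SD, n = 3 each), and it made most of the sum of all 8 in the other groups. Sprr1a and Lor had their lowest and highest values of the IgG group in the same mice as the sum of the 7, which was formed after the values had been seen. Dsg3 ran in the reverse order, and 15 of the 22 list genes that rose were highest in replicate 1, where this sum was lowest. Paneth cell markers rose too, with 4 of 6 tested, and fibroblast markers with 4 of 8, Col1a1 and Col3a1 among them (1 of 8, Fbln1, fell), while 4 of 12 absorptive colonocyte and 5 of 7 tested adipocyte markers fell. With limma no gene passed among 8 goblet cell, 8 smooth muscle, 8 macrophage and 7 T cell markers, with 1, 1, 0 and 0 at an unadjusted p under 0.05, and 1 of 8 B and plasma cell markers, Sdc1, which epithelium also expresses, rose. In anti-S100a9 vs IgG, 6 of 8 neutrophil, 5 of 6 Paneth cell and 3 of 8 fibroblast markers fell, as did Sdc1 and Krt35. In the same comparison 3 of 12 absorptive colonocyte, 2 of 8 smooth muscle, 1 of 8 fibroblast and 1 of 7 T cell markers rose. Krt35 and Defa17 reached the minimum only with the IgG samples. Defa17 is among the Paneth cell markers counted as rising in IgG vs Control and as falling in anti-S100a9 vs IgG. IgG replicate 1 had the lowest goblet cell sum, 1033 FPKM against at least 5022 in every other sample, and the lowest absorptive colonocyte sum. Over all genes tested, 8.18% rose and 3.01% fell in IgG vs Control, and 6.72% rose and 14.4% fell in anti-S100a9 vs IgG. The part of these cell types in the values of the squamous genes was not tested.

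**Figure D5:**
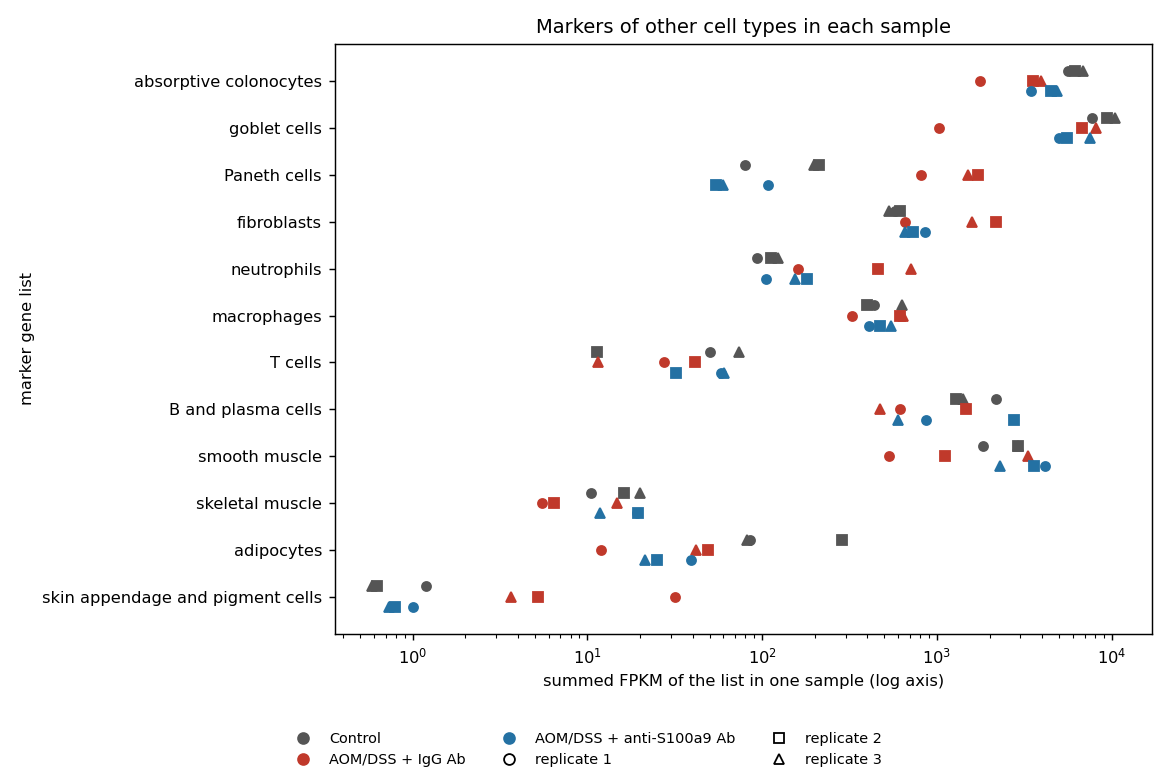
Summed FPKM of each marker list (rows) in each of the 9 samples (log x axis); colors mark groups and shapes mark replicate numbers. Skin appendage and pigment cell genes sum to at most 1.19 FPKM outside IgG and to 31.8 in its replicate 1, whose goblet cell sum is the lowest, at 1033 FPKM. Ly6g makes most of the neutrophil sum outside IgG.

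The genes outside all lists whose pattern was most like that of the set were named by Pearson's r with the mean standardized log2 value of the 5 tested genes, over the 9 samples. These samples fall into groups and share their libraries with the set, so r is a description. Arg1, arginase 1, was first with r = 0.99, followed by Bmp1 (0.989), Srpx2 (0.986), Trem1 (0.983), Sema6b (0.979), Apln (0.974) and Trim15 (0.968). Arg1 had 0.192, 0.172 and 0.195 FPKM in Control, 11.9, 10.3 and 59.5 in IgG, and 0.475, 0.461 and 0.0701 in anti-S100a9, highest in IgG replicate 3 as most of the set was. Bmp1, a procollagen protease, had 7.67 to 8.91 FPKM in Control, 19.2 to 32.5 in IgG and 8.02 to 11.4 in anti-S100a9.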

How the data were processed

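RNA-seq was performed on colon tissue of 9 mice, 3 per group, grouped by the sample labels. The authors deposited 1 table per mouse with 21544 rows of gene symbols and decimal values. The deposited values were taken to be FPKM from their form, since no unit is stated in the sources used here, and they summed to 308377 to 408811 per sample. The submitters' processing notes name GRCm38, TopHat, Cufflinks, HTSeq and DESeq without versions. The paper identified changed genes with DESeq, which needs counts and was not run. Depth is not given in the sources used here and was estimated only as the FPKM of 1 fragment, from steps between low values, and the 3 mice per group set the precision.

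From the files, rows with a repeated symbol (46) were summed, and log2(FPKM + 0.1) was fitted for genes that reached 0.1 FPKM in 3 or more samples, with limma 3.58.1 in R 4.3.3 over all 9 samples (intensity trend, Benjamini-Hochberg adjustment over 15278 genes). Genes of the set, the lists and their markers were chosen with earlier results of these data known. Named were all genes of the set, up to 4 most abundant genes of each squamous list with its largest and smallest called change, 2 most abundant genes of each marker list, and 8 genes of most similar pattern; several of these are given only in counts or not reported here. Promoters and positions came from RefSeq on GRCm38.p6, and transcripts from GENCODE, aligned with Biopython 1.88. Alternatives varied pseudocount, filter, scaling, samples, trend, block and threshold. The fit was tested on simulated data. Python 3.11.15, pandas 2.3.3 and matplotlib 3.10.9 were used.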

Additional observations from a re-analysis of the deposited data

How the results depend on the processing

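With at least 1 FPKM in 3 samples as the filter, 2 genes of the set could be tested, and 1 was higher in IgG vs Control and 2 lower in anti-S100a9 vs IgG, instead of 3 and 4. Fitted with only the 2 groups compared, 11 instead of 22 other squamous genes rose in IgG vs Control, as 502 instead of 1250 of all genes did. With a change above 2-fold at an unadjusted p under 0.05, the thresholds of the paper, 1 gene of the set and 2 other squamous genes were higher in anti-S100a9 vs Control instead of 0. Over the fits that each left out 1 sample, genes of the set called higher in IgG vs Control ranged from 1 to 3 and those called lower in anti-S100a9 vs IgG from 0 to 3. Other squamous genes ranged from 8 to 26 and from 6 to 22, and both counts in anti-S100a9 vs Control stayed at 0. Same-numbered samples of different groups deviated from their group means with correlations of -0.19 to 0.25, so replicate numbers were not taken to pair mice; with the replicate block, the counts were 2, 4 and 0 for the set and 22, 24 and 0 for the other squamous genes. Median-of-ratios scaling moved the median log2 fold change of all genes from 0.09 to -0.01 for IgG vs Control. Of 715 recomputed fold changes of named genes, 569 stayed on their side of the threshold with the same direction, 145 no longer passed, 1 newly passed and 0 changed direction. Causes of these shifts were not tested, and genes at a few estimated fragments, such as Ivl, Sprr1b and Trp63, are limited by depth.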
